A study of Mus musculus with 18 samples.

Results

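The genes described here are the 37 members of the amino acid stress programme that the transcription factor ATF4 runs: its regulators, the enzymes of serine, asparagine, proline and cysteine synthesis, amino acid transporters and the cytosolic tRNA synthetases. The members are a list of named genes, and the rule that chose them uses no measured value. All 37 were found among the 23418 genes of the table, and all 37 reached an RPKM (reads per kilobase and per 1000000 counted reads) of 1 in at least 3 of the 18 libraries, the filter that left 11238 genes to test. Vldlr passed that filter only through DMSO libraries, so it had to differ. Its values are given as a description with no test, and counts of calls are also given without it. Mouse leukemia cells of C57BL/6 origin, carrying the fusion MLL-AF9, MLL-AF6 or MLL-AF1p, were kept for 6 days in 6 µM MI-2-2, which blocks the binding of menin to MLL, or in DMSO. The 6 groups, of 3 libraries each, were MLL-AF9 with MI-2-2, MLL-AF9 with DMSO, MLL-AF6 with MI-2-2, MLL-AF6 with DMSO, MLL-AF1p with MI-2-2 and MLL-AF1p with DMSO. All 6 shared the strain, the serum-rich medium, a final DMSO content of 0.25% and a medium change on day 3, when viable cells were set back to 1 mln per ml and the compound or DMSO was given again. The labels name each group by its construct and do not say how many clones or animals the transformed cells came from. They call the 3 libraries of a group replicates without saying that they were separate cultures, so the p-values measure only the spread between libraries, which may be technical.

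ATF4 is made when the kinases GCN2, PERK, PKR or HRI phosphorylate the translation factor eIF2, which slows most translation but favours that of the Atf4 mRNA. GCN2 is the kinase that senses uncharged tRNA when amino acids run short. ATF4 protein pairs with C/EBP partners and binds composite elements in genes that make, import and charge amino acids, among them the serine pathway enzymes and most cytosolic tRNA synthetases. Trib3, Ddit3, Chac1, Sesn2 and Ddit4 are further targets, some of which feed back on ATF4 or damp mTORC1, the kinase complex that links amino acids to growth. Because ATF4 is controlled in large part by translation, the level of its mRNA is only a partial reading of its activity. In leukemia cells these genes are known as suppliers of amino acids and one-carbon units for growth.

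Depth was 21.18 to 56.3 M counted reads (M, 1000000) per library and was highest in MLL-AF1p cells, so comparisons of that construct with the others carry a difference of depth. Markers of myeloid progenitors were present, with summed levels of 1456 to 5128 RPKM in MI-2-2 libraries and 3556 to 7750.2 RPKM in DMSO libraries over the 7 listed genes in the table. In MLL-AF1p the sums overlapped, at 4712 to 5128 RPKM with MI-2-2 and 4066 to 6412 RPKM with DMSO. In MLL-AF9 and MLL-AF6 every MI-2-2 library was below every DMSO library. In the DMSO libraries of those constructs 2 of the 7 stayed under 1 RPKM. Neutrophil markers summed to 18713 to 35738 RPKM with MI-2-2 and 2262 to 4053 RPKM with DMSO (8 genes), and monocyte and macrophage markers to 4238 to 14238 RPKM with MI-2-2 and 591 to 4147 RPKM with DMSO (10 genes). The 7 megakaryocyte and mast cell markers summed to 8.91 to 17.7 RPKM with MI-2-2 and 14.1 to 28.3 RPKM with DMSO. In MLL-AF1p these sums overlapped, at 16.6 to 17.7 RPKM with MI-2-2 and 15.8 to 19.4 RPKM with DMSO. Both markers that passed the filter, Pf4 and Mcpt8, were called lower in MLL-AF9. Erythroid, lymphocyte and fibroblast markers summed to 0.0129 to 1.96 RPKM in every library. These are bulk libraries, in which fewer cells of a type and less RNA per cell cannot be told apart, and the part of the myeloid shift in the results below was not tested.

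In the fit of all groups, most amino acid stress genes were called lower with MI-2-2 in MLL-AF9 cells. In MLL-AF6 cells 8 of the 37 were called lower and in MLL-AF1p cells 6, or 7 and 5 without Vldlr. Counts of calls do not test a difference between constructs, which is tested directly further below. Of the 37 members, 0 were called higher and 24 lower in MLL-AF9 cells, 0 and 8 in MLL-AF6 cells, and 0 and 6 in MLL-AF1p cells (limma on log2(RPKM + 0.5), Benjamini-Hochberg adjusted p under 0.05 over all genes tested). At an unadjusted p under 0.05 the counts were 0 and 26, 0 and 10, and 0 and 10, given without the share of all genes. With voom on the whole reads they were 0 and 22, 0 and 2, and 0 and 7. The share lower with voom was 59.5% of members beside 27.5% of all genes in MLL-AF9. It was 5.4% beside 22.7% in MLL-AF6 and 18.9% beside 25.9% in MLL-AF1p. In the adjusted fit without voom, 28.5% of all genes tested were called higher and 27.9% lower in MLL-AF9. The same shares were 18.02% and 38.9% in MLL-AF6 cells, and 19.1% and 26.3% in MLL-AF1p cells. In the fit of all groups the share of members called lower was above the background in MLL-AF9 and below it in MLL-AF6 and MLL-AF1p. In MLL-AF9 it was 64.9% of members beside 27.9% of all genes, but 18.9% beside 15.0% without libraries numbered 3. In MLL-AF6 and MLL-AF1p its side depended on the fit. In MLL-AF6 it was 21.6% beside 38.9% in the fit of all groups, but 48.6% beside 40.9% without libraries numbered 2. In MLL-AF1p it was 16.2% beside 26.3% in the fit of all groups, but 40.5% (15 members) beside 35.8% when that construct was fitted alone. With a replicate block shared by all groups it was 81.1% beside 30.6% in MLL-AF9. In MLL-AF6 and MLL-AF1p that block gave 43.2% beside 42.8% and 48.6% beside 31.05%. The median log2 difference of the members was −0.73 in MLL-AF9, −0.43 in MLL-AF6 cells and −0.38 in MLL-AF1p cells, beside −0.00, −0.16 and −0.06 for all genes tested. The differences were below 0 for 35, 34 and 35 of the 37 members, where 50.1%, 65.9% and 57.0% of all genes tested lay below 0. In MLL-AF6 the 34 became 30 after median centring, after quantile normalization and with voom, given without the share of all genes. All 3 MI-2-2 libraries lay below all 3 DMSO libraries for 25 members in MLL-AF9, 5 in MLL-AF6 cells and 19 in MLL-AF1p cells, where 28.2%, 41.5% and 40.3% of all genes tested did. All 3 lay above for 0, 1 and 0 members, against 28.97%, 19.4% and 28.9% of all genes, the 1 member being Slc3a2 in MLL-AF6 cells. Scaling bore on MLL-AF6: 2025 genes were higher and 4377 lower there, 2441 and 3384 after median centring, and 2828 and 2547 with voom, which moved the median of all genes to −0.01 and that of the members to −0.28.

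Pycr1, which catalyses the last step of proline synthesis, was the 1 member called lower in all 3 constructs. Another 10 were called in 2 of them. Nupr1, Eif4ebp1 and Sars were called in MLL-AF9 and MLL-AF1p, and Psph, Shmt2, Nars, Eprs, Tars and Lars in MLL-AF9 and MLL-AF6. Vldlr was called in MLL-AF6 and MLL-AF1p, calls that are no test. A further 15 were called in 1 construct and 11 in none, Atf4 itself among the 11. By role, the calls in MLL-AF9 were 8 of 9 enzymes of amino acid synthesis, 10 of 12 tRNA synthetases, 3 of 5 transporters, 2 of 6 stress effectors and 1 of 5 regulators. In MLL-AF6 the same roles had 3, 4, 0, 1 and 0 calls, and in MLL-AF1p 1, 1, 0, 3 and 1, with Vldlr counted once among the effectors of each.

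Of the 24 calls in MLL-AF9, 18 remained whichever of the 18 libraries was left out, and the count of members called lower ranged from 19 to 30. The 19, without DMSO replicate 2 of that construct, were 51.4% of members beside 27.7% of all genes, and the 30 were 81.1% beside 28.5%. The 30 came without DMSO replicate 1 of that construct, when Atf4, Atf5, Trib3, Chac1, Stc2, Mthfd2, Slc3a2 and Aars passed and Nupr1 and Slc38a2 did not. In MLL-AF6, 1 of the 7 calls other than Vldlr remained throughout, that of Psph. With Vldlr counted, the MLL-AF6 count was 2 without MI-2-2 replicate 1, 5.4% of members beside 33.0% of all genes. It was also 2 without MI-2-2 replicate 3 or DMSO replicate 3, beside 33.6% and 33.8% of all genes. Without DMSO replicate 2 it was 4, or 10.8% beside 36.0%. It was 14 without MI-2-2 replicate 2, 37.8% of members beside 37.4% of all genes, and 13 without DMSO replicate 1, 35.1% beside 38.0%. In MLL-AF1p, 1 of the 5 calls other than Vldlr remained, that of Nupr1. With Vldlr counted, the MLL-AF1p count was 3 without MI-2-2 replicate 1, MI-2-2 replicate 2 or DMSO replicate 2 of that construct. That was 8.1% of members, beside 21.4%, 22.2% and 22.3% of all genes in the same order. The count was 10 without MLL-AF9 DMSO replicate 1, which shares in the estimate of the spread, or 27.0% beside 29.6%.

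**Figure D1:**
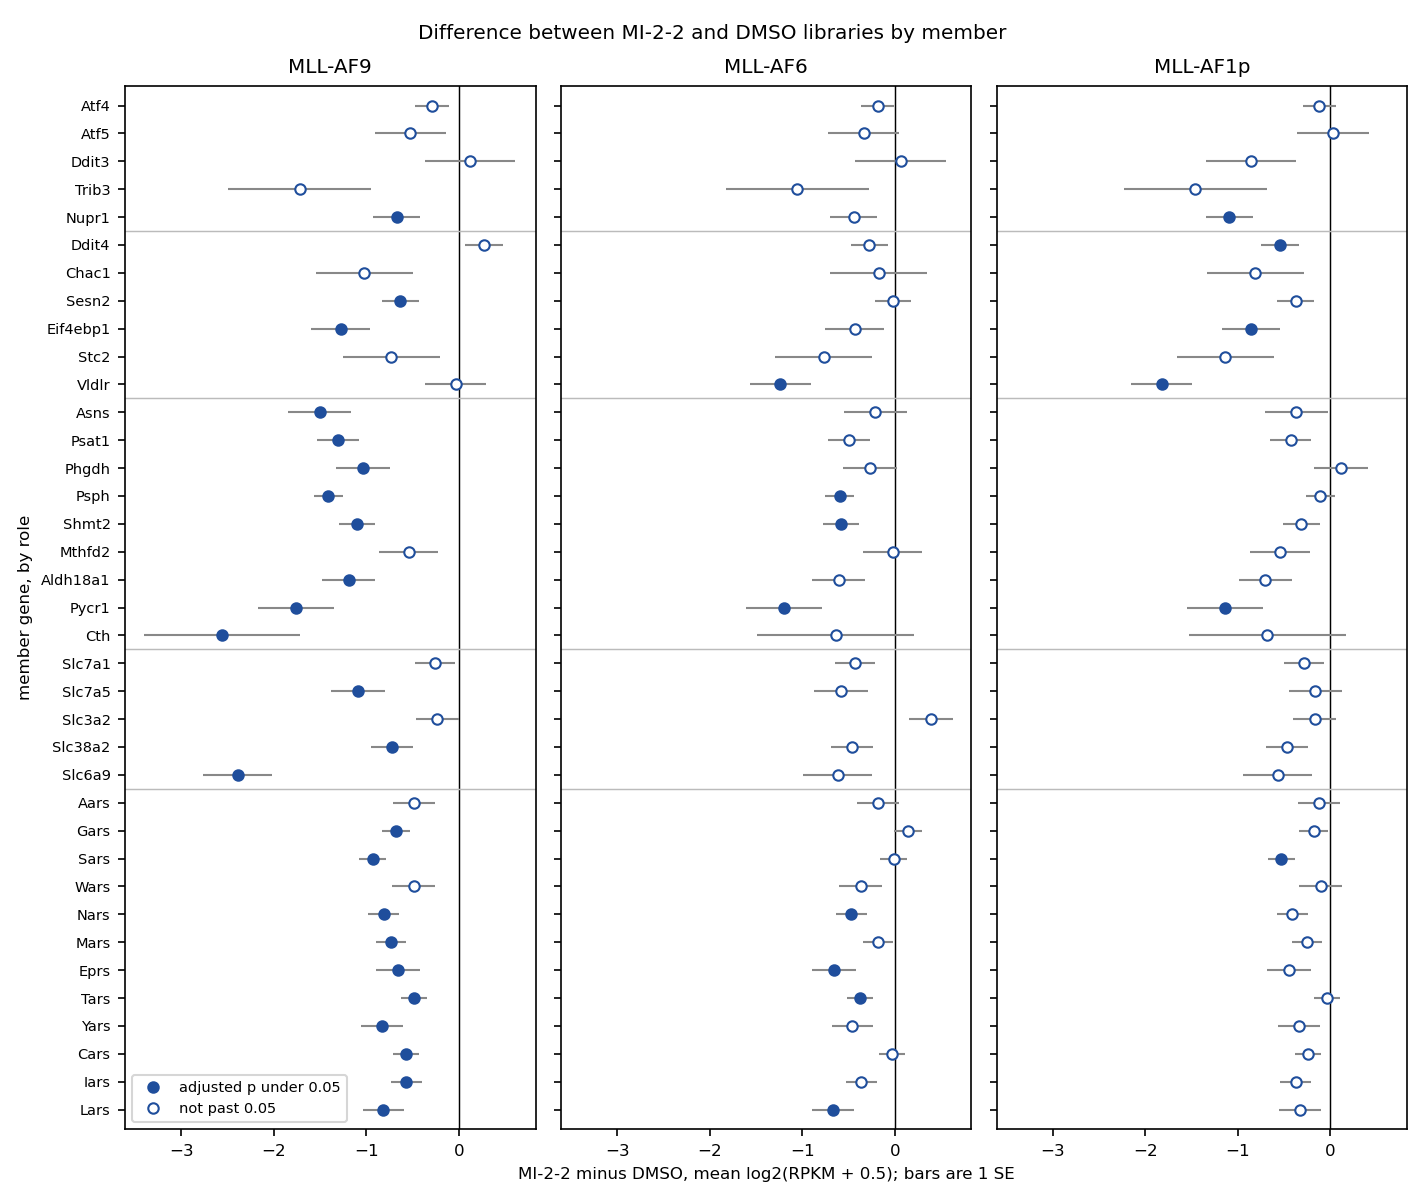
Difference of mean log2(RPKM + 0.5) between MI-2-2 and DMSO libraries for each of the 37 members (rows, by role) in each construct (panels), with bars of 1 SE and filled points where the adjusted p was under 0.05. Filled points number 24 in MLL-AF9, 8 in MLL-AF6 cells and 6 in MLL-AF1p cells, and all of them lie left of 0; Vldlr is among them in the last 2 panels.

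Libraries of one group differed more in these genes than in the median of all genes tested in 5 of the 6 groups. In MLL-AF9 and MLL-AF1p the spread was wider with DMSO than with MI-2-2, and in MLL-AF6 it was about as wide with MI-2-2. The median within-group SD of the members on the log2 scale was 0.465 in MLL-AF9 DMSO, 0.286 in MLL-AF6 DMSO and 0.341 in MLL-AF1p DMSO, where that of all genes tested was 0.173, 0.129 and 0.0875. With MI-2-2 the members' median SD was 0.128, 0.301 and 0.0405 in the same order of constructs, where that of all genes was 0.0845, 0.0984 and 0.0502. The highest library was over 2-fold the lowest for 1 member in MLL-AF9 MI-2-2, 16 in MLL-AF9 DMSO, 6 in MLL-AF6 MI-2-2, 6 in MLL-AF6 DMSO, 0 in MLL-AF1p MI-2-2 and 7 in MLL-AF1p DMSO. The MLL-AF1p MI-2-2 libraries varied less in the members than in all genes.

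The variation was shared by the members. DMSO replicate 2 was the highest library for 36 of 37 members in MLL-AF9, 26 in MLL-AF6 cells and 36 in MLL-AF1p cells, while it was the highest for 35.3%, 42.7% and 46.2% of all genes tested. DMSO replicate 1 was the lowest for 34, 34 and 36 members, while it was the lowest for 38.5%, 42.9% and 38.0% of all genes. MI-2-2 replicate 2 was the highest for 28 of the 36 members detected in MLL-AF9, 35 of 37 in MLL-AF6 cells and 19 of 37 in MLL-AF1p cells, while it was the highest for 43.6%, 47.9% and 37.04% of all genes. The median member in DMSO replicate 2 stood 0.74 log2 units above the mean of the other 2 libraries in MLL-AF9, 0.33 in MLL-AF6 cells and 0.53 in MLL-AF1p cells, and in MI-2-2 replicate 2 the figures were 0.15, 0.52 and 0.02. The summed level of the 37 genes was 1168, 1242 and 1111 RPKM in MLL-AF9 MI-2-2 replicates 1, 2 and 3 and 1459, 2869 and 1985 RPKM in MLL-AF9 DMSO. MLL-AF6 libraries summed to 1382, 2019.7 and 1478 RPKM with MI-2-2 and 1654, 2209 and 2118 RPKM with DMSO. MLL-AF1p libraries summed to 1669, 1704 and 1676 RPKM with MI-2-2 and 1751, 2841 and 2051 RPKM with DMSO. DMSO replicate 1 of each construct thus lay nearest to the MI-2-2 libraries of that construct, and in MLL-AF6 it lay within their range. Some members did not follow the others in every group. Among them, Slc38a2 was highest in replicate 1 in both MLL-AF9 and MLL-AF6 groups, and Ddit4 was lowest in replicate 2 of MLL-AF1p DMSO. Nupr1 and Cars were lowest in replicate 2 of MLL-AF6 DMSO.

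Some other gene lists followed these library differences in part. The summed level of 10 MYC and nucleolar genes, which serve ribosome production, was 669, 865 and 656 RPKM in DMSO replicates 1, 2 and 3 of MLL-AF9, 558, 899.8 and 789 in MLL-AF6 cells and 749, 863 and 770.02 in MLL-AF1p cells, so that replicate 2 was the highest in each. Monocyte and macrophage markers summed to 1949, 591 and 747 RPKM in the same MLL-AF9 libraries and 4147, 2055 and 2594 in those of MLL-AF6, with replicate 1 the highest and replicate 2 the lowest, and to 689, 806 and 707 in MLL-AF1p cells, where replicate 2 was the highest. Replicate 1 was not the lowest for the MYC and nucleolar genes of MLL-AF9. Proliferation genes summed to 777, 1021 and 925 RPKM in the MLL-AF9 DMSO libraries, with replicate 1 the lowest and replicate 2 the highest. In MLL-AF1p DMSO replicate 2 was instead the lowest, with 1606, 1365 and 1608 RPKM for proliferation genes and 6412, 4066 and 5942 RPKM for progenitor markers. Their part in the variation of the stress genes was not tested. The labels give the same numbers in every group and do not say what a number stands for.

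**Figure D2:**
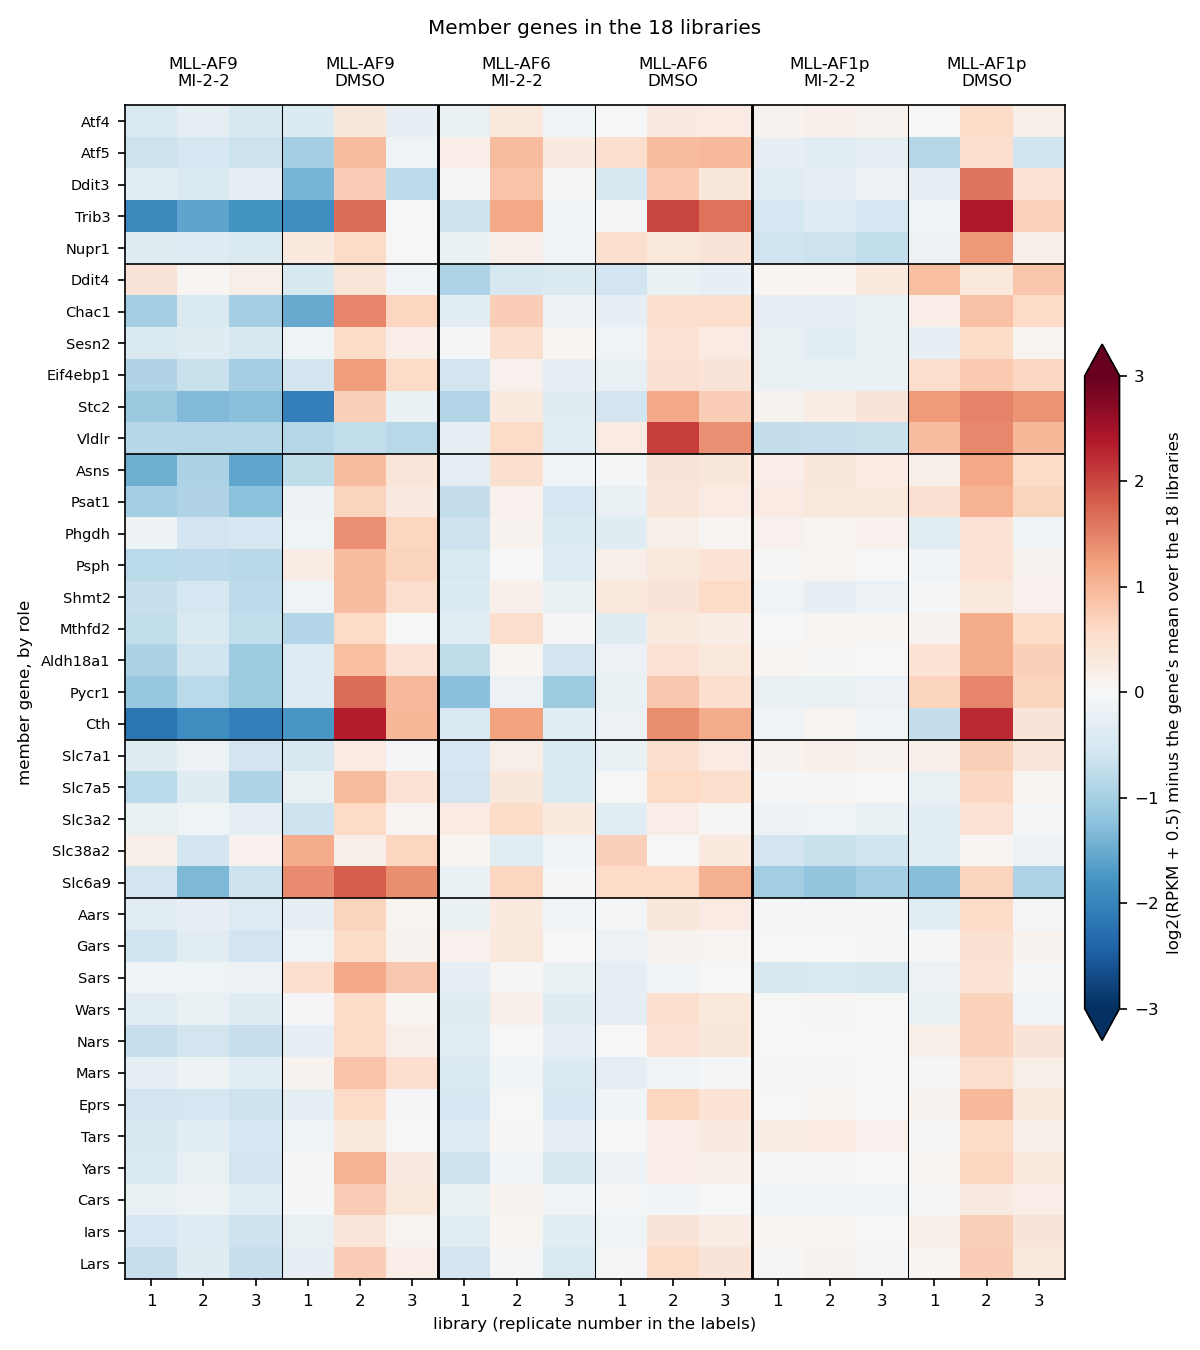
Level of the 37 members (rows, by role) in the 18 libraries (columns, by group and replicate number) as log2(RPKM + 0.5) minus the gene's mean over the 18 libraries, red above and blue below that mean. Replicate 2 is the reddest column of each DMSO group for most rows, for 36 of 37 genes in MLL-AF9 and MLL-AF1p and 26 in MLL-AF6 cells, and the MLL-AF9 MI-2-2 columns are blue in most rows.

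**Figure D3:**
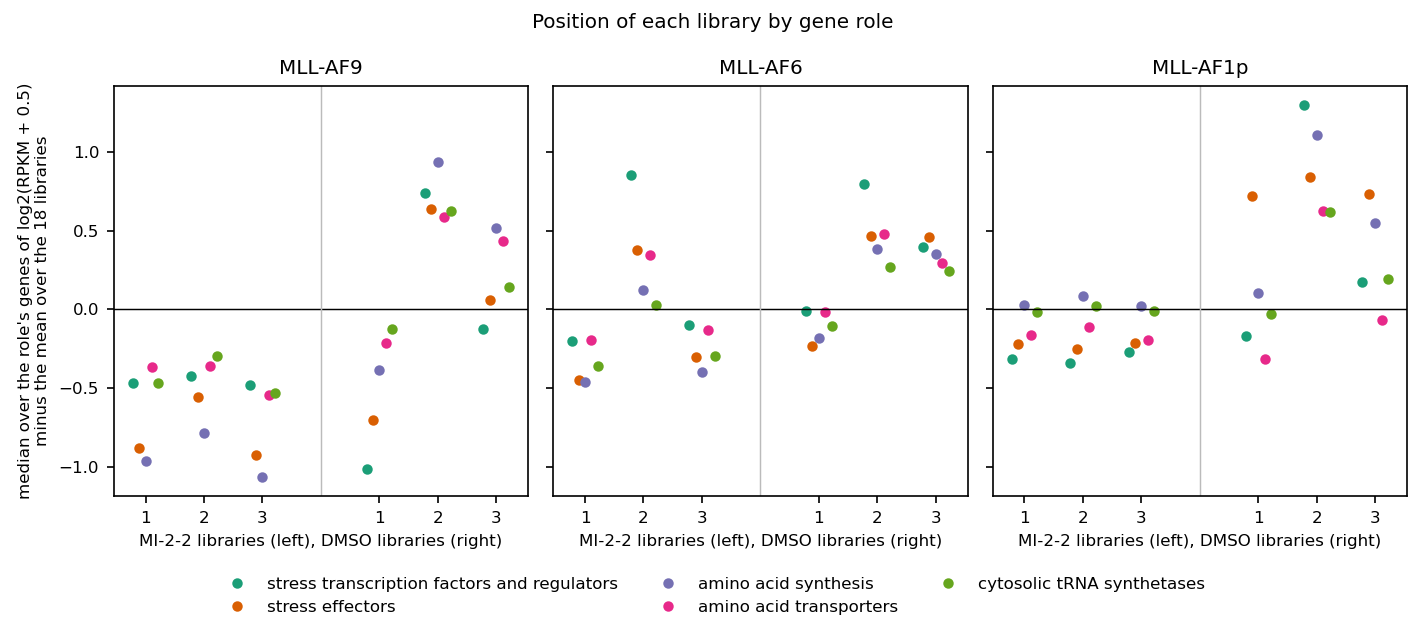
Median over the genes of each role (colours) of log2(RPKM + 0.5) minus the gene's mean over the 18 libraries, for each MI-2-2 library (left of each panel) and DMSO library (right) by replicate number. In MLL-AF9 and MLL-AF1p DMSO all 5 roles were highest in replicate 2, and in MLL-AF1p MI-2-2 the 3 libraries lie close together.

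Promoters of some members carry the core of the C/EBP-ATF composite element, which ATF4 and its partners are known to bind. RefSeq promoters of GRCm38.p6, a later build than the mm9 of the authors, were found for 29 of the 37 members, each window running from 250 bases before the start of the gene to 50 after it. TGATGNAA, on either strand, occurred in at least 1 promoter of 11 of these 29 members, or 37.9%, and of 4.51% of the 27025 genes in the same table. Counted by promoter, 31.4% of 35 member promoters and 3.97% of all 32851 had it. It was found in 5 of 7 tRNA synthetases, 2 of 5 regulators, 2 of 5 stress effectors, 2 of 8 synthesis enzymes and 0 of 4 transporters. The members were listed as genes of the ATF4 programme, so a share above that of all genes is not a separate result. A match is a description of the letters and not a bound site, and no match says only that these letters are not in the window. A relation of matches to the MI-2-2 response was not tested. The 6 windows shown lie before the start of the gene and belong to members called lower with MI-2-2 in at least 1 construct. Vldlr is among them only through calls that are no test, since it passed the filter through DMSO libraries alone. The windows are read 5′ to 3′ on the strand of the gene, with the matched letters in capitals.
Asns, chr6:7693210-7693252, - strand: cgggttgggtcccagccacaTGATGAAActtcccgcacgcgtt
Pycr1, chr11:120643824-120643871, - strand: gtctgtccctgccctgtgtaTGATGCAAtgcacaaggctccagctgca
Nupr1, chr7:126625553-126625600, - strand: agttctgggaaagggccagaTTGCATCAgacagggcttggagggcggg
Gars, chr6:55037951-55037998, + strand: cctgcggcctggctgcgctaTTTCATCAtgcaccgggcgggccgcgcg
Tars, chr15:11399659-11399693, - strand: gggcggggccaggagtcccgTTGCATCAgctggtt
Vldlr, chr19:27216800-27216847, + strand: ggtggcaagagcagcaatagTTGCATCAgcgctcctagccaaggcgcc
Chac1 and Aars had a match before the start as well, and were called in none of the constructs. Trib3, Yars and Iars had theirs after the start. Pycr1 and Asns carried it on the strand of the gene, the other 4 on the opposite strand.

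Among the regulators, Atf4 mRNA itself was not called in any construct. Values are given in the order of replicates 1, 2 and 3. Atf4 was at 190.4, 219 and 189 RPKM in MLL-AF9 cells with MI-2-2, against 193, 335 and 221 RPKM with DMSO. MLL-AF6 cells had 226, 327 and 239 RPKM of Atf4 with MI-2-2, against 261, 319 and 312 RPKM with DMSO. MLL-AF1p cells had 284, 292 and 284 RPKM of Atf4 with MI-2-2, against 264, 385 and 296 RPKM with DMSO. Replicate 2 was the highest library of each group, and the groups overlapped throughout. For Atf4 the log2 difference was −0.29 for MLL-AF9 cells, −0.19 for MLL-AF6 cells and −0.12 for MLL-AF1p cells (SE 0.18 in each; limma, Benjamini-Hochberg adjusted p = 0.192, 0.401 and 0.626). The MLL-AF9 difference of Atf4 was larger when DMSO replicate 1 was left out, at −0.45, and passed (limma, adjusted p = 0.0491).

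Trib3, a pseudokinase that is induced by ATF4 and restrains it, varied widely between libraries. Trib3 was at 3.23, 4.26 and 3.63 RPKM in MLL-AF9 cells with MI-2-2, against 3.44, 45.6 and 14.01 RPKM with DMSO. MLL-AF6 cells had 8.73, 31.8 and 12.8 RPKM of Trib3 with MI-2-2, against 13.4, 56.7 and 43.6 RPKM with DMSO. MLL-AF1p cells had 9.48, 10.4 and 9.58 RPKM of Trib3 with MI-2-2, against 12.5, 75.2 and 22.6 RPKM with DMSO. In MLL-AF9, DMSO replicate 2 was far above DMSO replicate 1, which lay within the range of the MI-2-2 libraries. For Trib3 the log2 difference was −1.72 for MLL-AF9 cells, −1.05 for MLL-AF6 cells and −1.46 for MLL-AF1p cells (SE 0.78 in each; limma, Benjamini-Hochberg adjusted p = 0.0705, 0.261 and 0.137). Its difference in MLL-AF9 was −2.63 without DMSO replicate 1 (limma, adjusted p = 0.00587). In MLL-AF1p all 3 MI-2-2 libraries were below all 3 DMSO libraries, yet the spread under DMSO left the difference short of the threshold.

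Nupr1, a small chromatin protein of the stress response, fell in MLL-AF9 and MLL-AF1p cells. Nupr1 was at 23.6, 23.4 and 22.5 RPKM in MLL-AF9 cells with MI-2-2, against 37.4, 45.4 and 30.3 RPKM with DMSO. MLL-AF6 cells had 26.6, 34.2 and 28.5 RPKM of Nupr1 with MI-2-2, against 43.04, 38.1 and 40.3 RPKM with DMSO. MLL-AF1p cells had 20.02, 19.2 and 18.03 RPKM of Nupr1 with MI-2-2, against 27.2, 75.9 and 33.9 RPKM with DMSO. The MI-2-2 libraries lay below the DMSO libraries in every construct. For Nupr1 the log2 difference was −0.67 for MLL-AF9 cells, −0.44 for MLL-AF6 cells and −1.09 for MLL-AF1p cells (SE 0.25 in each; limma, Benjamini-Hochberg adjusted p = 0.0345, 0.15 and 0.00261). The MLL-AF9 call ended without MI-2-2 replicate 1, 2 or 3 or DMSO replicate 1 or 2 of that construct (limma, adjusted p = 0.0632 to 0.127), and the MLL-AF1p difference was −0.66 without its DMSO replicate 2.

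Ddit3 encodes CHOP, a C/EBP-like factor that follows ATF4 in prolonged stress, and it was not called. Ddit3 was at 20.3, 19.3 and 21.04 RPKM in MLL-AF9 cells with MI-2-2, against 9.67, 43.8 and 14.9 RPKM with DMSO. MLL-AF6 cells had 25.04, 47.3 and 26.8 RPKM of Ddit3 with MI-2-2, against 18.4, 45.5 and 33.01 RPKM with DMSO. MLL-AF1p cells had 20.9, 21.3 and 22.97 RPKM of Ddit3 with MI-2-2, against 21.98, 80.2 and 35.4 RPKM with DMSO. In MLL-AF9 DMSO replicate 2 stood alone above the other 5 libraries. For Ddit3 the log2 difference was 0.12 for MLL-AF9 cells, 0.06 for MLL-AF6 cells and −0.86 for MLL-AF1p cells (SE 0.49 in each; limma, Benjamini-Hochberg adjusted p = 0.855, 0.924 and 0.166). Ddit3 shares exon sequence on the opposite strand with Mars in the GENCODE M21 annotation, and the kit does not mark strand, so reads of the pair cannot be told apart there. Atf5, a relative of ATF4 controlled by the same kinases, was not called either. Atf5 was at 21.5, 23.8 and 21.3 RPKM in MLL-AF9 cells with MI-2-2, against 16.5, 64.3 and 31.003 RPKM with DMSO. MLL-AF6 cells had 38.7, 65.4 and 40.5 RPKM of Atf5 with MI-2-2, against 48.6, 64.3 and 66.5 RPKM with DMSO. MLL-AF1p cells had 28.3, 26.6 and 27.96 RPKM of Atf5 with MI-2-2, against 18.4, 47.98 and 22.3 RPKM with DMSO. The groups overlapped in each construct, and in MLL-AF9 and MLL-AF1p the DMSO libraries lay on both sides of the MI-2-2 libraries. For Atf5 the log2 difference was −0.53 for MLL-AF9 cells, −0.34 for MLL-AF6 cells and 0.03 for MLL-AF1p cells (SE 0.39 in each; limma, Benjamini-Hochberg adjusted p = 0.261, 0.474 and 0.959). Atf5 exons overlap those of Il4i1 and Nup62 on the opposite strand.

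Of the 6 stress effectors, 2 were called lower in MLL-AF9, 1 in MLL-AF6 cells and 3 in MLL-AF1p cells. Vldlr, which had to differ and is given with no test, was the 1 in MLL-AF6 and 1 of the 3 in MLL-AF1p. Eif4ebp1, which encodes a repressor of cap-dependent translation that mTORC1 inactivates, fell in MLL-AF9 and MLL-AF1p cells. Eif4ebp1 was at 49.2, 57.9 and 46.01 RPKM in MLL-AF9 cells with MI-2-2, against 62.5, 220.1 and 139 RPKM with DMSO. MLL-AF6 cells had 63.4, 102 and 77.3 RPKM of Eif4ebp1 with MI-2-2, against 79.1, 128 and 122 RPKM with DMSO. MLL-AF1p cells had 79.4, 80.6 and 80.4 RPKM of Eif4ebp1 with MI-2-2, against 134, 161 and 143 RPKM with DMSO. The MI-2-2 libraries were below the DMSO libraries in MLL-AF9 and MLL-AF1p and overlapped them in MLL-AF6 cells. For Eif4ebp1 the log2 difference was −1.28 for MLL-AF9 cells, −0.43 for MLL-AF6 cells and −0.86 for MLL-AF1p cells (SE 0.32 in each; limma, Benjamini-Hochberg adjusted p = 0.00289, 0.26 and 0.0374). The MLL-AF1p call ended without any 1 of the 6 libraries of that construct (limma, adjusted p = 0.0576 to 0.104).

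Vldlr, a lipoprotein receptor gene, was nearly silent in MLL-AF9 cells and passed the filter through the DMSO libraries of the other constructs. Vldlr was at 0, 0 and 0 RPKM in MLL-AF9 cells with MI-2-2, against 0, 0.0357 and 0.00415 RPKM with DMSO. MLL-AF6 cells had 0.248, 0.844 and 0.210 RPKM of Vldlr with MI-2-2, against 0.565, 3.26 and 1.83 RPKM with DMSO. MLL-AF1p cells had 0.0468, 0.0551 and 0.0643 RPKM of Vldlr with MI-2-2, against 1.21, 1.96 and 1.30 RPKM with DMSO. MLL-AF9 levels were at or near 0 in both groups, so no fold is given there. For Vldlr the log2 differences were −1.24 in MLL-AF6 cells and −1.82 in MLL-AF1p cells, given with no test and on a scale that understates changes at these low levels. The MLL-AF6 groups overlapped, and the difference was −0.82 without DMSO replicate 2.

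Stc2 encodes stanniocalcin, a secreted glycoprotein of the stress response, and Chac1 an enzyme that degrades glutathione. Stc2 was at 9.82, 8.44 and 8.88 RPKM in MLL-AF9 cells with MI-2-2, against 4.94, 36.5 and 19.2 RPKM with DMSO. MLL-AF6 cells had 11.8, 26.9 and 16.98 RPKM of Stc2 with MI-2-2, against 14.9, 49.3 and 37.4 RPKM with DMSO. MLL-AF1p cells had 23.7, 25.8 and 28.9 RPKM of Stc2 with MI-2-2, against 54.3, 63.1 and 56.9 RPKM with DMSO. DMSO replicate 1 of MLL-AF9 was below every MI-2-2 library, whereas the MLL-AF1p groups were clear of each other. For Stc2 the log2 difference was −0.73 for MLL-AF9 cells, −0.77 for MLL-AF6 cells and −1.14 for MLL-AF1p cells (SE 0.53 in each; limma, Benjamini-Hochberg adjusted p = 0.25, 0.225 and 0.0889). Chac1 was at 4.89, 7.67 and 4.95 RPKM in MLL-AF9 cells with MI-2-2, against 3.35, 29.7 and 16.9 RPKM with DMSO. MLL-AF6 cells had 8.17, 17.8 and 9.43 RPKM of Chac1 with MI-2-2, against 8.80, 14.8 and 15.4 RPKM with DMSO. MLL-AF1p cells had 8.82, 8.45 and 8.92 RPKM of Chac1 with MI-2-2, against 12.1, 19.8 and 16.1 RPKM with DMSO. Chac1 showed the same order in MLL-AF9, with DMSO replicate 1 the lowest of the 6 libraries. For Chac1 the log2 difference was −1.03 for MLL-AF9 cells, −0.17 for MLL-AF6 cells and −0.81 for MLL-AF1p cells (SE 0.52 in each; limma, Benjamini-Hochberg adjusted p = 0.108, 0.794 and 0.219). With DMSO replicate 1 left out, the MLL-AF9 differences were −1.50 for Stc2 and −1.88 for Chac1, and both passed (limma, adjusted p = 0.00493 and 0.000195).

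Sesn2, a leucine sensor that restrains mTORC1, was at 12.4 ± 0.596 RPKM with MI-2-2 and 19.9 ± 4.88 RPKM with DMSO (−0.63) in MLL-AF9 cells (SD, n = 3). The fall passed there (limma, adjusted p = 0.0134), but not without DMSO replicate 2 (adjusted p = 0.0731), and the differences of −0.02 in MLL-AF6 cells and −0.37 in MLL-AF1p did not pass. Ddit4 encodes REDD1, another inhibitor of mTORC1, and was at 25.3 ± 3.13 RPKM with MI-2-2 and 21.4 ± 6.41 RPKM with DMSO (0.27) in MLL-AF9 cells, 14.3 ± 2.62 RPKM with MI-2-2 and 17.3 ± 2.53 RPKM with DMSO (−0.27) in MLL-AF6 cells and 24.2 ± 2.45 RPKM with MI-2-2 and 36.04 ± 7.69 RPKM with DMSO (−0.54) in MLL-AF1p cells. It passed in MLL-AF1p alone (limma, adjusted p = 0.039), a call that ended without MI-2-2 replicate 1 or 2 or DMSO replicate 1 or 3 (adjusted p = 0.101 to 0.139). Without MLL-AF9 DMSO replicate 2, Ddit4 was higher with MI-2-2 in MLL-AF9, at 0.49 (limma, adjusted p = 0.0486).

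Of the 9 amino acid synthesis genes, 8 fell in MLL-AF9 cells, and the median log2 difference of the 9 was −1.31. The 3 enzymes of serine synthesis, Phgdh, Psat1 and Psph in the order of the pathway, were all called there. Psat1 was at 25.7, 27.9 and 22.3 RPKM in MLL-AF9 cells with MI-2-2, against 47.3, 83.6 and 63.7 RPKM with DMSO. MLL-AF6 cells had 32.1, 57.5 and 37.03 RPKM of Psat1 with MI-2-2, against 45.1, 68.1 and 62.4 RPKM with DMSO. MLL-AF1p cells had 62.5, 65.99 and 65.4 RPKM of Psat1 with MI-2-2, against 72.5, 109 and 84.01 RPKM with DMSO. The MI-2-2 libraries were below the DMSO libraries in MLL-AF9 and MLL-AF1p, and MLL-AF6 MI-2-2 replicate 2 lay within the DMSO range. For Psat1 the log2 difference was −1.31 for MLL-AF9 cells, −0.49 for MLL-AF6 cells and −0.43 for MLL-AF1p cells (SE 0.23 in each; limma, Benjamini-Hochberg adjusted p = 0.000143, 0.0745 and 0.131).

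Psph was at 18.4 ± 0.356 RPKM with MI-2-2 and 50.8 ± 12.4 RPKM with DMSO (−1.41) in MLL-AF9 cells, 26.8 ± 4.73 RPKM with MI-2-2 and 40.4 ± 3.18 RPKM with DMSO (−0.60) in MLL-AF6 cells and 33.4 ± 0.992 RPKM with MI-2-2 and 36.6 ± 6.66 RPKM with DMSO (−0.11) in MLL-AF1p cells (SD, n = 3; limma, adjusted p = 1.75e-06, 0.0045 and 0.59). Its MI-2-2 levels were tight, from 18.03 to 18.7 RPKM in MLL-AF9. Psph shares exon sequence with Cct6a on the opposite strand, so reads of the pair cannot be told apart there. Phgdh, the entry step, was at 68.02 ± 10.96 RPKM with MI-2-2 and 152 ± 75.1 RPKM with DMSO (−1.04) in MLL-AF9 (adjusted p = 0.00708), and this difference was −0.67 without DMSO replicate 2. Phgdh did not pass in MLL-AF6 cells (−0.27) or MLL-AF1p (0.11). Shmt2, which turns serine into glycine and a folate one-carbon unit in mitochondria, fell in MLL-AF9 with 33.7 ± 3.07 RPKM with MI-2-2 and 75.9995 ± 26.8 RPKM with DMSO (−1.10) and in MLL-AF6 with 48.4 ± 9.76 RPKM with MI-2-2 and 71.9 ± 6.76 RPKM with DMSO (−0.58) (limma, adjusted p = 0.00022 and 0.0208). It was at 47.3 ± 2.20 RPKM with MI-2-2 and 59.2 ± 7.71 RPKM with DMSO (−0.31) in MLL-AF1p cells without passing. Mthfd2, the next enzyme of that folate route, was not called, at −0.54, −0.02 and −0.55 in MLL-AF9, MLL-AF6 and MLL-AF1p, and in MLL-AF9 DMSO it ran from 36.9 RPKM in replicate 1 to 103.8 in replicate 2. Shmt2 and Ndufa4l2 overlap on opposite strands.

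Asns makes asparagine from aspartate and is among the best known ATF4 targets. It was at 36.7, 52.4 and 33.99 RPKM in MLL-AF9 MI-2-2 libraries and 59.98, 194 and 130.3 RPKM in DMSO libraries, so the lowest DMSO library was only just above the highest MI-2-2 one. The MLL-AF9 difference was −1.50 (SE 0.34; limma, Benjamini-Hochberg adjusted p = 0.00148). In MLL-AF6 it was at 106 ± 31.8 RPKM with MI-2-2 and 121 ± 19.1 RPKM with DMSO (−0.21) and in MLL-AF1p at 122 ± 6.81 RPKM with MI-2-2 and 164 ± 57.2 RPKM with DMSO (−0.37), with neither past the threshold (SD, n = 3; adjusted p = 0.617 and 0.397).

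Both enzymes listed for proline synthesis fell in MLL-AF9. Pycr1 was at 1.04, 1.43 and 1.13 RPKM in MLL-AF9 cells with MI-2-2, against 2.11, 10.3 and 6.18 RPKM with DMSO. MLL-AF6 cells had 0.937, 2.51 and 1.14 RPKM of Pycr1 with MI-2-2, against 2.47, 5.43 and 4.34 RPKM with DMSO. MLL-AF1p cells had 2.41, 2.46 and 2.50 RPKM of Pycr1 with MI-2-2, against 4.91, 8.84 and 4.96 RPKM with DMSO. Levels were low throughout and the MI-2-2 libraries were the lower ones in MLL-AF9 and MLL-AF1p, while MLL-AF6 MI-2-2 replicate 2 reached DMSO replicate 1. For Pycr1 the log2 difference was −1.76 for MLL-AF9 cells, −1.20 for MLL-AF6 cells and −1.14 for MLL-AF1p cells (SE 0.41 in each; limma, Benjamini-Hochberg adjusted p = 0.00186, 0.0213 and 0.0337). The MLL-AF6 call ended without MI-2-2 replicate 1 or 3 or DMSO replicate 2 or 3 (limma, adjusted p = 0.0614 to 0.0878), and the MLL-AF1p call without MI-2-2 replicate 1, 2 or 3 or DMSO replicate 2 (adjusted p = 0.0716 to 0.14). Aldh18a1 was at 8.04, 10.6 and 7.41 RPKM in MLL-AF9 cells with MI-2-2, against 12.2, 30.8 and 21.9 RPKM with DMSO. MLL-AF6 cells had 9.28, 16.8 and 10.9 RPKM of Aldh18a1 with MI-2-2, against 14.1, 22.05 and 20.1 RPKM with DMSO. MLL-AF1p cells had 16.7, 16.6 and 16.4 RPKM of Aldh18a1 with MI-2-2, against 21.5, 35.4 and 26.7 RPKM with DMSO. Aldh18a1, which starts the pathway from glutamate, had its MI-2-2 libraries below the DMSO libraries in MLL-AF9 and MLL-AF1p. For Aldh18a1 the log2 difference was −1.19 for MLL-AF9 cells, −0.61 for MLL-AF6 cells and −0.70 for MLL-AF1p cells (SE 0.28 in each; limma, Benjamini-Hochberg adjusted p = 0.0022, 0.0812 and 0.055).

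Cth, the last step of cysteine synthesis from methionine, ranged widely among libraries. Cth was at 0.260, 0.446 and 0.339 RPKM in MLL-AF9 cells with MI-2-2, against 0.522, 17.2 and 6.34 RPKM with DMSO. MLL-AF6 cells had 2.03, 7.41 and 2.26 RPKM of Cth with MI-2-2, against 2.57, 8.56 and 6.99 RPKM with DMSO. MLL-AF1p cells had 2.70, 3.14 and 2.67 RPKM of Cth with MI-2-2, against 1.59, 15.8 and 3.98 RPKM with DMSO. DMSO replicate 2 of MLL-AF9 stood far above replicate 1, which was close to the MI-2-2 libraries of that construct. For Cth the log2 difference was −2.56 for MLL-AF9 cells, −0.64 for MLL-AF6 cells and −0.68 for MLL-AF1p cells (SE 0.85 in each; limma, Benjamini-Hochberg adjusted p = 0.0175, 0.539 and 0.536). The MLL-AF9 call ended without DMSO replicate 2 (−1.65) or DMSO replicate 3 (limma, adjusted p = 0.104 and 0.058).

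**Figure D4:**
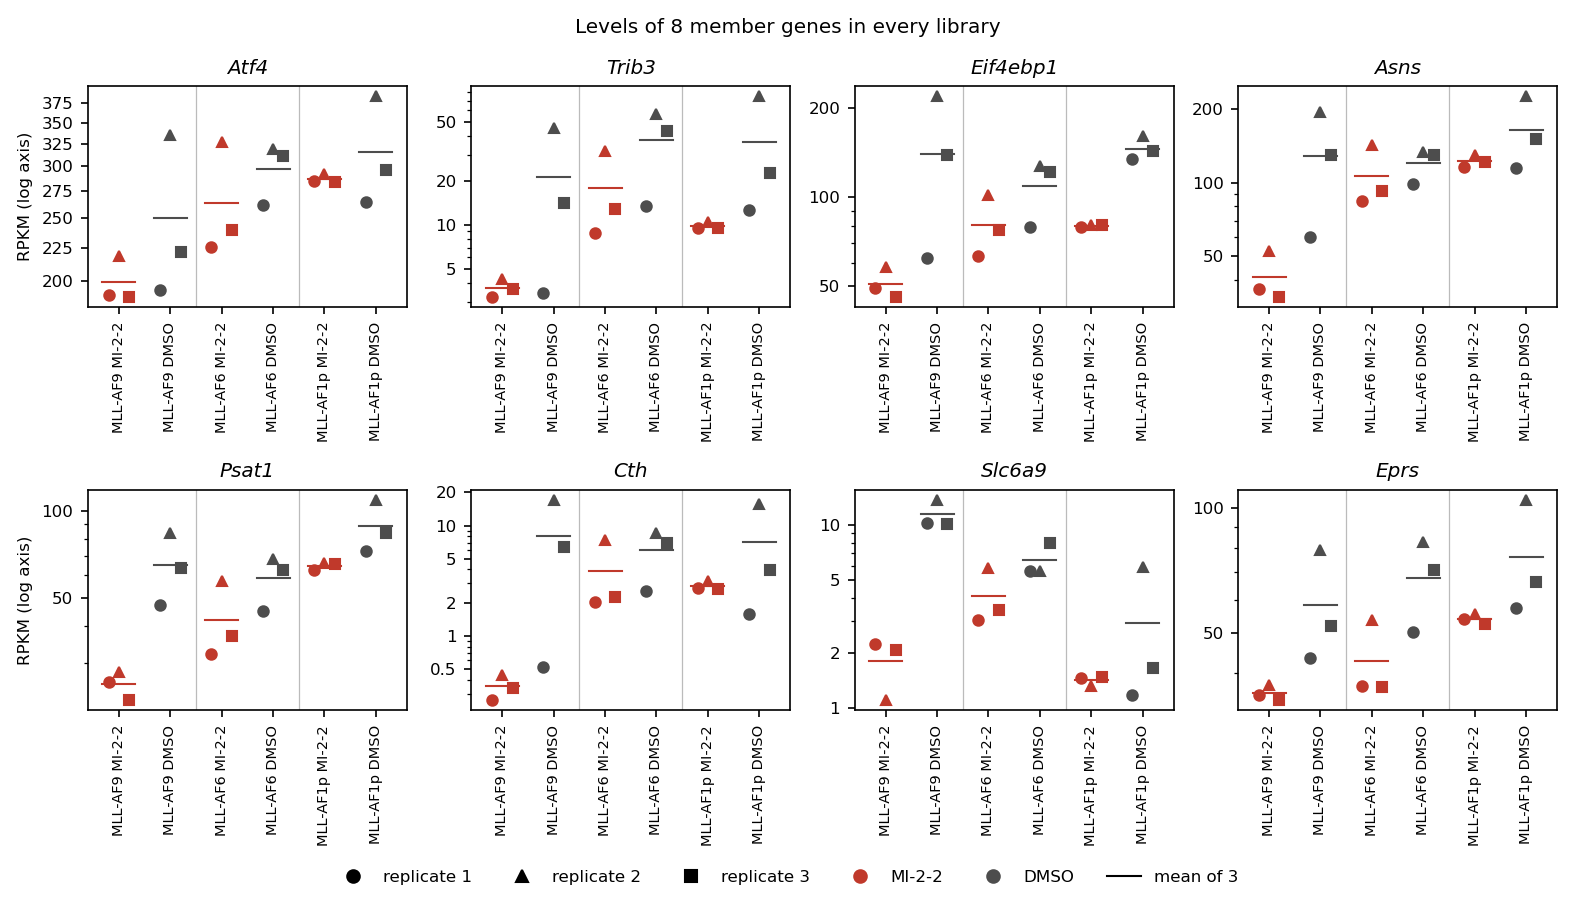
RPKM on a log axis of 8 members in every library, MI-2-2 in red left of DMSO in grey for each construct, with a marker shape for each replicate number and a line at the mean of 3. DMSO replicate 2 (triangle) is the highest DMSO library in every panel and construct but for Slc6a9 in MLL-AF6 cells, and MLL-AF1p MI-2-2 libraries lie close together.

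Among the transporters, Slc6a9, a glycine importer, changed the most. Slc6a9 was at 2.25, 1.10 and 2.08 RPKM in MLL-AF9 cells with MI-2-2, against 10.3, 13.8 and 10.2 RPKM with DMSO. MLL-AF6 cells had 3.05, 5.80 and 3.44 RPKM of Slc6a9 with MI-2-2, against 5.61, 5.64 and 7.96 RPKM with DMSO. MLL-AF1p cells had 1.46, 1.32 and 1.48 RPKM of Slc6a9 with MI-2-2, against 1.18, 5.93 and 1.65 RPKM with DMSO. In MLL-AF9 the MI-2-2 libraries were all far below the DMSO libraries, whereas the groups overlapped in the other 2 constructs and MLL-AF1p DMSO replicate 2 stood alone. For Slc6a9 the log2 difference was −2.39 for MLL-AF9 cells, −0.62 for MLL-AF6 cells and −0.57 for MLL-AF1p cells (SE 0.37 in each; limma, Benjamini-Hochberg adjusted p = 5.66e-05, 0.171 and 0.226). Its exons overlap those of B4galt2 and Ccdc24 on the opposite strand.

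Slc7a5 and Slc3a2 encode the light and heavy chains of the system L importer of large neutral amino acids. Slc7a5 was at 37.8, 51.7 and 34.6 RPKM in MLL-AF9 cells with MI-2-2, against 57.3, 129 and 90.03 RPKM with DMSO. MLL-AF6 cells had 45.2, 84.5 and 49.4 RPKM of Slc7a5 with MI-2-2, against 65.8, 101 and 95.4 RPKM with DMSO. MLL-AF1p cells had 64.7, 67.8 and 66.5 RPKM of Slc7a5 with MI-2-2, against 56.9, 103 and 69.97 RPKM with DMSO. Slc7a5 was lower in all 3 MI-2-2 libraries of MLL-AF9 and overlapped in MLL-AF6 and MLL-AF1p. For Slc7a5 the log2 difference was −1.09 for MLL-AF9 cells, −0.58 for MLL-AF6 cells and −0.16 for MLL-AF1p cells (SE 0.29 in each; limma, Benjamini-Hochberg adjusted p = 0.00485, 0.102 and 0.679). Slc3a2 did not pass in any construct, at −0.23, 0.39 and −0.17 in MLL-AF9, MLL-AF6 and MLL-AF1p, although its MLL-AF6 levels of 54.2, 67.7 and 56.1 RPKM with MI-2-2 were all above the 36.3, 53.1 and 47.2 RPKM with DMSO.

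Slc38a2, a sodium-coupled importer of small neutral amino acids, had its own library order. Slc38a2 was at 87.4, 52.97 and 84.6 RPKM in MLL-AF9 cells with MI-2-2, against 168, 88.03 and 121 RPKM with DMSO. MLL-AF6 cells had 81.1, 61.8 and 71.2 RPKM of Slc38a2 with MI-2-2, against 128, 76.9 and 95.7 RPKM with DMSO. MLL-AF1p cells had 52.97, 48.8 and 50.9 RPKM of Slc38a2 with MI-2-2, against 62.5, 80.5 and 70.1 RPKM with DMSO. Replicate 1 was highest and replicate 2 lowest in both groups of MLL-AF9 and MLL-AF6, opposite to most other members. For Slc38a2 the log2 difference was −0.73 for MLL-AF9 cells, −0.46 for MLL-AF6 cells and −0.47 for MLL-AF1p cells (SE 0.23 in each; limma, Benjamini-Hochberg adjusted p = 0.0132, 0.0952 and 0.106). The MLL-AF9 call ended without MI-2-2 replicate 2 or DMSO replicate 1 (limma, adjusted p = 0.0811 and 0.0717). Slc7a1, which imports arginine and lysine, was not called. Slc7a1 was at 13.3, 15.3 and 11.7 RPKM in MLL-AF9 cells with MI-2-2, against 12.2, 20.7 and 16.5 RPKM with DMSO. MLL-AF6 cells had 11.8, 19.7 and 12.8 RPKM of Slc7a1 with MI-2-2, against 15.1, 24.2 and 20.6 RPKM with DMSO. MLL-AF1p cells had 18.6, 19.2 and 18.6 RPKM of Slc7a1 with MI-2-2, against 19.1, 28.7 and 22.4 RPKM with DMSO. The groups overlapped in each construct, in MLL-AF1p by a narrow margin. For Slc7a1 the log2 difference was −0.26 for MLL-AF9 cells, −0.43 for MLL-AF6 cells and −0.29 for MLL-AF1p cells (SE 0.22 in each; limma, Benjamini-Hochberg adjusted p = 0.326, 0.1 and 0.291).

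The 12 cytosolic tRNA synthetases, which load amino acids onto their tRNAs, all pointed downwards in MLL-AF9, as did 50.1% of all genes tested. The differences there ran from −0.93 for Sars to −0.48 for Aars. For 11 of the 12 all 3 MI-2-2 libraries lay below all 3 DMSO libraries, as for 28.2% of all genes tested. The median difference of the 12 was −0.67 in MLL-AF9, −0.37 in MLL-AF6 cells and −0.29 in MLL-AF1p cells. Lars was at 21.8, 27.5 and 21.7 RPKM in MLL-AF9 cells with MI-2-2, against 29.9, 59.8 and 40.7 RPKM with DMSO. MLL-AF6 cells had 23.7, 34.3 and 25.9 RPKM of Lars with MI-2-2, against 34.9, 53.3 and 46.3 RPKM with DMSO. MLL-AF1p cells had 36.6, 38.1 and 34.6 RPKM of Lars with MI-2-2, against 37.3, 59.5 and 43.4 RPKM with DMSO. Lars, for leucine, had its MI-2-2 libraries below its DMSO libraries in MLL-AF9 and narrowly in MLL-AF6 cells, and overlapped in MLL-AF1p cells. For Lars the log2 difference was −0.82 for MLL-AF9 cells, −0.67 for MLL-AF6 cells and −0.33 for MLL-AF1p cells (SE 0.23 in each; limma, Benjamini-Hochberg adjusted p = 0.00618, 0.02 and 0.25).

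Eprs encodes the fused enzyme for glutamate and proline. Eprs was at 35.2, 37.3 and 34.2 RPKM in MLL-AF9 cells with MI-2-2, against 43.3, 79.4 and 51.9 RPKM with DMSO. MLL-AF6 cells had 37.1, 53.7 and 36.99 RPKM of Eprs with MI-2-2, against 50.2, 82.6 and 70.9 RPKM with DMSO. MLL-AF1p cells had 53.9, 55.5 and 52.6 RPKM of Eprs with MI-2-2, against 57.3, 105 and 66.3 RPKM with DMSO. DMSO replicate 2 was again highest in each construct, and MLL-AF6 MI-2-2 replicate 2 overlapped the DMSO range. For Eprs the log2 difference was −0.66 for MLL-AF9 cells, −0.66 for MLL-AF6 cells and −0.44 for MLL-AF1p cells (SE 0.24 in each; limma, Benjamini-Hochberg adjusted p = 0.0283, 0.0272 and 0.14). The MLL-AF9 call ended without MI-2-2 replicate 1 or 3 or DMSO replicate 2 (limma, adjusted p = 0.0635 to 0.154), and the difference was −0.41 without the last of these. Nars was at 41.4, 45.3 and 41.1 RPKM in MLL-AF9 cells with MI-2-2, against 56.7, 99.3 and 75.5 RPKM with DMSO. MLL-AF6 cells had 52.96, 66.8 and 55.2 RPKM of Nars with MI-2-2, against 67.5, 90.2 and 85.4 RPKM with DMSO. MLL-AF1p cells had 66.5, 67.9 and 67.9 RPKM of Nars with MI-2-2, against 75.3, 109 and 88.3 RPKM with DMSO. Nars, for asparagine, had all MI-2-2 libraries below all DMSO libraries in each construct, in MLL-AF6 by a narrow margin. For Nars the log2 difference was −0.81 for MLL-AF9 cells, −0.47 for MLL-AF6 cells and −0.41 for MLL-AF1p cells (SE 0.17 in each; limma, Benjamini-Hochberg adjusted p = 0.000792, 0.0287 and 0.06). Yars was at 25.8, 29.99 and 23.3 RPKM in MLL-AF9 cells with MI-2-2, against 33.7, 73.1 and 42.3 RPKM with DMSO. MLL-AF6 cells had 22.6, 33.02 and 24.98 RPKM of Yars with MI-2-2, against 31.02, 40.5 and 39.04 RPKM with DMSO. MLL-AF1p cells had 34.6, 36.2 and 35.5 RPKM of Yars with MI-2-2, against 37.2, 55.4 and 44.02 RPKM with DMSO. Yars, for tyrosine, was below its DMSO libraries in MLL-AF9 and MLL-AF1p and overlapped in MLL-AF6, and its MLL-AF9 difference was −0.52 without DMSO replicate 2. For Yars the log2 difference was −0.83 for MLL-AF9 cells, −0.46 for MLL-AF6 cells and −0.34 for MLL-AF1p cells (SE 0.22 in each; limma, Benjamini-Hochberg adjusted p = 0.00503, 0.0923 and 0.23). Yars overlaps C77080 on the opposite strand.

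The other synthetases are given by group means. Sars, for serine, was at 30.2 ± 0.903 RPKM with MI-2-2 and 59.02 ± 13.1 RPKM with DMSO (−0.93) in MLL-AF9, 29.9 ± 3.27 RPKM with MI-2-2 and 30.1 ± 2.91 RPKM with DMSO (−0.01) in MLL-AF6 cells and 23.5 ± 0.216 RPKM with MI-2-2 and 34.7 ± 7.90 RPKM with DMSO (−0.53) in MLL-AF1p cells (SD, n = 3). It fell in MLL-AF9 and MLL-AF1p (limma, adjusted p = 7.51e-05 and 0.0094), in MLL-AF1p not without DMSO replicate 2 (adjusted p = 0.057). Gars, for glycine, was at 83.3 ± 8.29 RPKM with MI-2-2 and 136 ± 32.6 RPKM with DMSO (−0.68) in MLL-AF9, where it fell, and did not pass at 0.15 in MLL-AF6 or −0.18 in MLL-AF1p cells. Tars, for threonine, fell in MLL-AF9 with 35.96 ± 2.29 RPKM with MI-2-2 and 51.02 ± 7.93 RPKM with DMSO (−0.49) and in MLL-AF6 with 42.5 ± 6.45 RPKM with MI-2-2 and 55.02 ± 4.80 RPKM with DMSO (−0.38) (adjusted p = 0.00848 and 0.0348). Mars (−0.73), Cars (−0.57) and Iars (−0.57), for methionine, cysteine and isoleucine, were called in MLL-AF9 and not in the other constructs; there Iars did not pass without DMSO replicate 2 (limma, adjusted p = 0.0501) and Cars was at −0.38 without it. Aars, for alanine, and Wars, for tryptophan, were not called, at −0.48 and −0.49 in MLL-AF9 (adjusted p = 0.0807 and 0.0879). The MLL-AF6 calls of Nars, Eprs, Tars and Lars each ended without MI-2-2 replicate 1 or 3 or DMSO replicate 2 or 3 of that construct, and that of Shmt2 without MI-2-2 replicate 1 or 3 or DMSO replicate 3 (limma, adjusted p = 0.0569 to 0.139).

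Whether the response differs between constructs was tested directly. The F test over the 3 constructs passed for 6 of 37 members, Vldlr, Psat1, Psph, Slc6a9, Gars and Sars, and for 52.8% of all genes tested. Without Vldlr, whose level near 0 in MLL-AF9 fixed that difference, it passed for 5. The MI-2-2 effect in MLL-AF9 minus that in MLL-AF6 was below 0 past the threshold for 5 members and above it for 0, beside 9.02% and 24.04% of all genes. The 5 were Slc6a9 (−1.78), Sars (−0.92), Gars (−0.82), Psph (−0.82) and Cars (−0.55; limma, Benjamini-Hochberg adjusted p = 0.0179, 0.00421, 0.00897, 0.0112 and 0.0498), so each of these was lowered more in MLL-AF9 than in MLL-AF6 cells. Against MLL-AF1p, 5 members had the lower value in MLL-AF9, Slc6a9 (−1.82), Psph (−1.30), Phgdh (−1.15), Psat1 (−0.88) and Shmt2 (−0.79), and 2 the higher, Ddit4 (0.82) and Vldlr (1.78, no test), where 13.6% and 21.4% of all genes did. Between MLL-AF6 and MLL-AF1p, 0 members were called in either direction, beside 11.6% of all genes higher and 19.5% lower. The counts were 1 and 1 at an unadjusted p under 0.05 and 1 and 0 with voom, counts that say nothing of equality. For MLL-AF9 minus MLL-AF6, 1 member was higher at an unadjusted p under 0.05 and 0 with voom. Scaling changes the split of all genes: for MLL-AF9 minus MLL-AF6 it was 2702 higher and 1014 lower, against 1302 and 1676 after median centring, 1469 and 1321 after quantile normalization and 1202 and 1298 with voom. For MLL-AF9 minus MLL-AF1p it was 2407 and 1532, against 1653 and 2379 after median centring and 1759 and 1928 after quantile normalization, and for MLL-AF6 minus MLL-AF1p 1308 and 2187, against 1883 and 1445 with voom. The share of members with the lower response in MLL-AF9 than in MLL-AF1p was near that of all genes tested, for which the median of this difference was 0.07.

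Single libraries bear on these counts. The counts that follow stand without the share of all genes in the same fit, so they are not results about the members. Without MLL-AF9 DMSO replicate 1, 17 members passed the F test, 17 had a lower response in MLL-AF9 than in MLL-AF6 cells and 16 a lower one than in MLL-AF1p cells. Without MLL-AF1p DMSO replicate 2 the F test passed for 11 members, and 11 had the lower response in MLL-AF9 than in MLL-AF1p cells. That last count fell to 2 or 3 without MLL-AF9 MI-2-2 replicate 1 or 3, MLL-AF9 DMSO replicate 2 or 3, replicate 3 of either MLL-AF6 group, or any MLL-AF1p library other than DMSO replicate 2. In the difference from MLL-AF1p, Phgdh, Psat1, Shmt2 and Ddit4 each lost their call in at least 8 of the 18 such fits, Cars its call in the difference from MLL-AF6 in 15, and Psat1 its F test in 13. For MLL-AF6 minus MLL-AF1p, 2 members were higher without MLL-AF1p DMSO replicate 1 and 2 lower without MLL-AF1p DMSO replicate 2. Slc6a9 and Psph kept their call in both pairs of constructs whichever library was left out, as did Gars and Sars against MLL-AF6.

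Levels under DMSO differed between constructs for few members. MLL-AF9 cells were above MLL-AF6 cells for 3 members and below for 1, beside 24.5% and 29.1% of all genes tested. The 3 were the synthetase genes Sars (0.94), Mars (0.61) and Cars (0.38; limma, Benjamini-Hochberg adjusted p = 8.05e-05, 0.00549 and 0.0361), and the 1 was Vldlr, given with no test. MLL-AF9 cells were above MLL-AF1p cells for 4 members, Slc6a9 (2.05), Slc38a2 (0.78), Sars (0.76) and Psph (0.45), and below for 3, Vldlr, Stc2 (−1.89) and Ddit4 (−0.76), beside 28.6% and 36.5%. MLL-AF6 cells were above MLL-AF1p cells for Slc6a9 (1.26) and Atf5 (1.12) and below for Ddit4 (−1.02) and Psat1 (−0.59), beside 23.7% and 28.8%. Atf4 was the highest of the 5 regulators in every library, at 249.996 ± 75.1, 297 ± 31.5 and 315 ± 62.2 RPKM in MLL-AF9, MLL-AF6 and MLL-AF1p DMSO (SD, n = 3), and the 3 constructs did not differ past the threshold. The counts that follow each leave out 1 library, stand without the share of all genes and are not results about the members. Without MLL-AF9 DMSO replicate 1, 9 members were above MLL-AF6 and 8 above MLL-AF1p. Without MLL-AF9 DMSO replicate 2, 6 were below MLL-AF6 and 14 below MLL-AF1p, and the calls of Cars (above MLL-AF6) and Psph (above MLL-AF1p) ended. Without MLL-AF1p DMSO replicate 1, 8 were below MLL-AF1p in MLL-AF9, and 5 without MLL-AF6 MI-2-2 replicate 2. Vldlr was joined by 1 other below MLL-AF6 without MLL-AF6 DMSO replicate 1 or MLL-AF1p DMSO replicate 2. For MLL-AF6 against MLL-AF1p, 5 were below without MLL-AF9 DMSO replicate 1 and 1 without MLL-AF6 DMSO replicate 1 or 3 or MLL-AF1p DMSO replicate 2 or 3. Further, 1 was above without MLL-AF6 DMSO replicate 3 and 0 without MLL-AF1p DMSO replicate 1 or 3, in MLL-AF6 cells. Without MLL-AF9 DMSO replicate 1 the Stc2 difference from MLL-AF1p was −1.11.

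The lists that follow are read against the shares of all genes called in each construct, which were 28.5% higher and 27.9% lower for MLL-AF9, 18.02% higher and 38.9% lower for MLL-AF6, and 19.1% higher and 26.3% lower for MLL-AF1p, and counts near those shares are not results about a list. Of 16 genes of the eIF2 kinases and eIF2 control, 3 were higher and 5 lower in MLL-AF9, 1 and 7 in MLL-AF6 cells and 3 and 2 in MLL-AF1p cells. Eif2b2, a subunit of the exchange factor that recharges eIF2, was lower in all 3 constructs at −0.76, −0.72 and −0.32. Impact, an inhibitor of GCN2, rose in MLL-AF9 (1.00) and MLL-AF6 (0.35) but did not pass in MLL-AF1p cells (0.10). Of 7 tested dimer partners of ATF4, 4 were higher and 2 lower in MLL-AF9, 3 and 2 in MLL-AF6 cells and 4 and 1 in MLL-AF1p cells. Cebpg, a C/EBP partner of ATF4, fell in all 3 constructs, with 14.2 ± 1.70 RPKM with MI-2-2 and 29.9 ± 4.90 RPKM with DMSO in MLL-AF9, 16.6 ± 0.382 and 30.7 ± 3.97 in MLL-AF6 cells, and 16.01 ± 0.501 and 30.2 ± 6.31 in MLL-AF1p cells (log2 differences −1.04, −0.86 and −0.87; limma, Benjamini-Hochberg adjusted p = 1.1e-05, 8.39e-05 and 0.00011). Atf3, a stress factor often induced beside ATF4, rose in all 3 (3.84, 3.15 and 1.45).

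For enzymes next to the members the same shares of all genes apply. Of 11 other cytosolic synthetase and scaffold genes, 0 were higher and 7 lower in MLL-AF9, 0 and 8 in MLL-AF6 cells, and 1 and 2 in MLL-AF1p cells, where Farsa, a subunit of the phenylalanine enzyme, rose (0.39). Of 17 mitochondrial synthetases, 0 were higher and 7 lower in MLL-AF9, 0 and 8 in MLL-AF6 cells, and 3 and 5 in MLL-AF1p cells, with Vars2 lower in each (−0.91, −0.62 and −0.24). Of 11 other folate, serine and glycine genes, 4 were higher and 3 lower in MLL-AF9, 1 and 3 in MLL-AF6 cells and 1 and 2 in MLL-AF1p cells. Of 12 other amino acid enzymes, 1 was higher and 7 lower in MLL-AF9, 2 and 4 in MLL-AF6 cells and 2 and 3 in MLL-AF1p cells. Gpt2, a mitochondrial alanine transaminase, was at −2.14 in MLL-AF9, −0.40 in MLL-AF6 cells without passing and −1.43 in MLL-AF1p cells.

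Of 12 tested transporters outside the member list, 5 were higher and 4 lower in MLL-AF9, 5 and 2 in MLL-AF6 cells and 4 and 2 in MLL-AF1p cells. Slc1a4, which carries alanine, serine and cysteine, fell in MLL-AF9 (−2.23) and MLL-AF1p (−1.40) but did not pass in MLL-AF6 cells (−0.92). Slc7a11, the cystine importer, which NRF2 also controls, rose in MLL-AF9 with 12.2 ± 3.72 RPKM with MI-2-2 and 2.75 ± 0.912 RPKM with DMSO (1.97) and in MLL-AF6 cells (2.60), and was at 0.47 in MLL-AF1p cells without passing. Of 16 mTORC1 and amino acid sensing genes, 7 were higher and 4 lower in MLL-AF9, 5 and 3 in MLL-AF6 cells and 5 and 1 in MLL-AF1p cells, with the Rag GTPase gene Rragc higher and Sesn1 lower in all 3. Of 8 endoplasmic reticulum stress sensors, 2 were higher and 2 lower in MLL-AF9, 0 and 4 in MLL-AF6 cells and 2 and 4 in MLL-AF1p cells. Ern1 (−0.75, −0.91 and −1.05) and Xbp1 (−0.98, −0.81 and −0.57), from another arm of the unfolded protein response, fell in all 3.

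Growth genes are set beside the members and the same shares of all genes. Of 16 proliferation genes, 12 were higher and 0 lower in MLL-AF9, 3 and 1 in MLL-AF6 cells and 2 and 1 in MLL-AF1p cells, where the members had 24, 8 and 6 genes lower. Of 10 MYC and nucleolar genes, 0 were higher and 8 lower in MLL-AF9, 0 and 10 in MLL-AF6 cells and 1 and 0 in MLL-AF1p cells. Myc itself was at 13.96 ± 0.272 RPKM with MI-2-2 and 36.2 ± 8.08 RPKM with DMSO in MLL-AF9 (−1.32), at −0.88 in MLL-AF6 cells, and at −0.50 in MLL-AF1p cells, where alone it did not pass (limma, Benjamini-Hochberg adjusted p = 0.0002, 0.00486 and 0.0984). The part of these genes in the levels of the members was not tested.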

How the data were processed

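RNA of 18 libraries was read after the unstranded TruSeq mRNA v2 kit on an Illumina HiSeq instrument, per the labels' protocols. HTSeq, edgeR, Bowtie2 (2.0.0.7), CASAVA (1.8.2) and the build mm9 stand in the submitters' processing notes, without roles. The deposited table holds RPKM per gene, per the file headers. Every nonzero value was a whole number of reads within 0.05, which gave the depth. Python 3.11.15, pandas 2.3.3, matplotlib 3.10.9, R 4.3.3 and limma 3.58.1 were used. Genes with an RPKM of at least 1 in 3 or more libraries were kept, 11238 of 23418. log2(RPKM + 0.5) was fitted with limma as 6 group means (12 residual degrees of freedom, trended prior), with Benjamini-Hochberg adjustment within each comparison and a threshold of 0.05. The fit was tested on simulated data. The members, lists and tests were chosen with earlier results of these data known. Every member is named; values in every library are given for Atf4 and for the 4 genes per role with the largest mean absolute log2 difference over the 3 constructs, and the others by means, ranges or counts. Library values of Asns in MLL-AF9 and Slc3a2 in MLL-AF6 were added after they were seen. In the other lists at most 3 genes by the same measure are named. Alternatives covered the pseudocount, filter, scaling, prior, construct-only fits, voom on whole reads, blocks, and libraries left out. Spi1 and Castor1 were not found under those names. Counting intervals do not apply to RPKM, so the number of libraries sets the precision.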

Additional observations from a re-analysis of the deposited data

Results flagged for a closer look

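The MI-2-2 response differed among the 3 constructs, by the F test of limma with Benjamini-Hochberg adjustment, for 5 members other than Vldlr. The same test passed for 52.8% of all genes tested, so the count is not a result about the members. The value given is the largest gap between the log2 differences of a pair of constructs. Psph had a gap of 1.30 (adjusted p = 0.000774) and Sars one of 0.92 (adjusted p = 0.00706). Slc6a9 had a gap of 1.82 (adjusted p = 0.0131). Vldlr had one of 1.78, given with no test because it passed the filter only through DMSO libraries and was at levels near 0 in MLL-AF9. Gars had a gap of 0.82 (adjusted p = 0.0149). Psat1 had a gap of 0.88 (adjusted p = 0.0477), which did not pass in 13 of the 18 fits that left out 1 library. For all but Vldlr the difference lay furthest below 0 in MLL-AF9.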

How the results depend on the processing

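Of 11211 member values under 31 alternative settings, 10565 kept their call or stayed without one, among them 365 that were not called in either fit and changed sign, while 265 lost and 378 gained a call. In 3 cases a sign turned with a call: Chac1 in MLL-AF9 against MLL-AF6 under DMSO ran from -0.68 to 0.80 over the fits that left out 1 library, 0.80 without MLL-AF9 DMSO replicate 1, and Nupr1 in MLL-AF6 against MLL-AF1p under DMSO from -0.32 to 0.41, 0.41 without MLL-AF1p DMSO replicate 2, and was at 0.45 with all libraries numbered 2 left out. The cause was not tested.

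Counts of members are given as higher and lower. Most stand without the share of all genes in the same fit and are read for their range alone. Leaving out 1 library gave 0 to 1 higher and 19 to 30 lower for MLL-AF9, 2 to 14 lower for MLL-AF6 and 3 to 10 lower for MLL-AF1p. For the difference of responses it gave 0 to 1 and 4 to 17 (MLL-AF9 minus MLL-AF6), 1 to 3 and 2 to 16 (MLL-AF9 minus MLL-AF1p), 0 to 2 and 0 to 2 (MLL-AF6 minus MLL-AF1p) and 5 to 17 by the F test. Under DMSO it gave 2 to 9 and 1 to 6 (MLL-AF9 against MLL-AF6), 3 to 8 and 3 to 14 (MLL-AF9 against MLL-AF1p) and 0 to 3 and 1 to 5 (MLL-AF6 against MLL-AF1p).

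With no filter on low values, which adds tests, 2 were lower in MLL-AF6 and 3 in MLL-AF1p, MLL-AF9 minus MLL-AF6 had 3 lower, MLL-AF9 minus MLL-AF1p 1 higher and 2 lower, and MLL-AF6 against MLL-AF1p under DMSO 1 and 1. Median centring gave 5 lower in MLL-AF6, 8 lower for MLL-AF9 minus MLL-AF6, 1 higher for MLL-AF9 minus MLL-AF1p and 11 by the F test. Quantile normalization gave 1 higher for MLL-AF6 minus MLL-AF1p. Voom gave 2 lower in MLL-AF6, 8 lower for MLL-AF9 minus MLL-AF6, 1 higher for MLL-AF9 minus MLL-AF1p, 1 higher for MLL-AF6 minus MLL-AF1p and 10 by the F test. Fitting a construct alone gave 15 lower in MLL-AF1p, and the DMSO libraries alone 1 and 1 for MLL-AF6 against MLL-AF1p.

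The replicate numbers did not meet the rule for pairing: 5 of 9 pairs with one number in a construct had correlated deviations over 0.1 (0.00079 to 0.557), and 13 of 18 libraries correlated best with their own number, a hint from the data and not the design. Numbers 1 and 2 correlated across groups at 0.0937 to 0.627, and number 3 at -0.0983 to 0.205. The deviations of the 3 libraries of a group sum to 0, so the numbers are not independent in this measure. The rule thus cannot decide whether the libraries were paired. A replicate block shared by all groups gave 1 higher and 16 lower in MLL-AF6 and 18 lower in MLL-AF1p, 1 and 10 for MLL-AF9 minus MLL-AF6, 12 lower for MLL-AF9 minus MLL-AF1p, 1 and 1 for MLL-AF6 minus MLL-AF1p, 15 by the F test, and under DMSO 6 and 4, 11 lower and 6 lower in the order of the comparisons above. The block within each construct gave 15 lower in MLL-AF6, 14 lower in MLL-AF1p, 1 and 9 for MLL-AF9 minus MLL-AF6, 9 lower for MLL-AF9 minus MLL-AF1p and 13 by the F test. The share of members lower with the shared block was 43.2% in MLL-AF6 and 48.6% in MLL-AF1p, beside 42.8% and 31.05% of all genes.

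Leaving out 1 number in every group changed more. Without number 1, 13 were lower in MLL-AF1p, 1 and 14 for MLL-AF9 minus MLL-AF6, 1 higher for MLL-AF9 minus MLL-AF1p, 5 higher for MLL-AF9 against MLL-AF6 under DMSO, 0 and 1 for MLL-AF6 against MLL-AF1p under DMSO, 13 by the F test, and 2230 of all genes for MLL-AF6 minus MLL-AF1p (3495 with all). Without number 2, 2 were higher in MLL-AF9, 18 lower in MLL-AF6, 1 and 3 for MLL-AF9 minus MLL-AF6, 3 lower for MLL-AF6 minus MLL-AF1p, and under DMSO 5 lower, 10 lower and 4 higher. Without number 3, the lower ones were 7 for MLL-AF9, 0 for MLL-AF6 and 1 for MLL-AF1p, with 0 for MLL-AF9 minus MLL-AF6, 0 and 0 for MLL-AF9 minus MLL-AF1p, 0 by the F test, and under DMSO 1 higher, 2 and 1, and 0 and 1; of all genes 3718, 3249 and 2086 were called in the 3 constructs, 725, 928 and 437 for the differences of responses, 1238 by the F test and 3284, 4837 and 2422 under DMSO. Each of these fits has 2 libraries a group. In the last of them, without number 3, the share lower in MLL-AF9 was 18.9% of members beside 15.0% of all genes. The 3 libraries a group and their spread under DMSO limit the precision for single members.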
